A study of Arabidopsis thaliana with 6 samples.

Results

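The genes described here are 9 Arabidopsis thaliana loci of gene families that cut, demethylesterify or protect pectin, taken by locus from a table of 32833 genes. They are the neighbouring pectin lyase-like genes AT1G05650 and AT1G05660, the polygalacturonase genes PGX1 (AT3G26610), PGX2 (AT1G78400) and PGX3 (AT1G48100), the pectin methylesterase genes PME2 (AT1G53830), PME3 (AT3G14310) and PME17 (AT2G45220), and the methylesterase inhibitor gene PMEI4 (AT4G25250). All 9 were in the table, and 8 of them passed the low-count filter, PGX2 being the exception. The genes were chosen with the contrast between auxin and mock already known, so their levels in that contrast are given as a description. Tests are given for other pectin genes and for the genes that flank them.

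RNA was sequenced from wild-type Col-0 roots, taken 3 days after germination, in 2 groups of 3 libraries. One group had spent 1 h in half-strength Murashige and Skoog liquid that held the auxin IAA (indole-3-acetic acid) at 1 µM, and the mock group the same time in that liquid alone. Each library was a pool of about 100 roots, and the labels do not say whether the pools were grown and treated separately, so the spread between libraries may be partly technical. Library totals ranged from 20808439 to 20984444 counts. The auxin response was present in each IAA library: GH3.3 (AT2G23170), an auxin-conjugating enzyme gene, stood at 985 ± 66.8 CPM in IAA and 5.25 ± 1.05 CPM in mock (SD, n = 3 each). CPM is counts per 1000000 counts of the scaled library. All 13 root cell type markers had counts in all 6 libraries. Their summed level was 618 to 668 CPM in IAA and 542 to 557 CPM in mock. Of these 13, COBL9, EXPA7, SCR and WOX5 were higher in IAA without overlap, and WOL was lower. Of all genes that passed the low-count filter, 12.3% were higher and 9.83% lower in that way. The 19 shoot and greening markers differed widely between libraries of the same group, with sums of 454, 1583 and 584 CPM in IAA 1 to 3, against 2739, 516 and 4482 CPM in mock 1 to 3. None of the 19 separated the groups, and their part in the results below was not tested. In such whole-root libraries fewer cells of a type and less RNA per cell cannot be told apart.

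Pectin is a gel-forming part of the plant cell wall, and its main chain, homogalacturonan, is a polymer of galacturonic acid that is delivered to the wall with methyl groups attached. Pectin methylesterases remove these groups, after which the chain can bind calcium and stiffen or be cut by polygalacturonases and pectate lyases. Small inhibitor proteins bind methylesterases and block them. In roots these enzymes take part in cell elongation and in the loosening of tissue over emerging lateral roots.

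The tandem pair was the lowest in IAA relative to mock of the 9 genes, together with PMEI4. AT1G05650 lies on chromosome 1 from 1690002 to 1692179 and AT1G05660 from 1694070 to 1696191, both on the minus strand and 1890 bases apart in TAIR10.1. Each has 4 exons and encodes 394 residues annotated as a pectin lyase-like protein, the fold of plant polygalacturonases. The 4 coding exons have the same lengths in both copies, 438, 290, 229 and 228 bases. The coding sequences were identical at 1077 of 1185 bases (90.9%). The next most similar coding sequences were those of AT2G43890 and AT2G43880, at 66.3% over 939 bases and 65.2% over 801 bases aligned to AT1G05650.

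Because reads of similar copies can be assigned to the wrong gene, the sequences were compared over the read length of 100 bases. None of the 1401 windows of 100 bases in the spliced AT1G05650 transcript occurred unchanged in the AT1G05660 transcript. Along the aligned coding sequence, windows of 100 bases held between 2 and 18 mismatches, with a median of 9. The longest stretch without a difference had 65 bases and lay in the third coding exon. It is shown because a read can be least well placed there, and it spans chr1:1690738-1690802 in AT1G05650 and chr1:1694756-1694820 in AT1G05660, both on the minus strand.
Shared run: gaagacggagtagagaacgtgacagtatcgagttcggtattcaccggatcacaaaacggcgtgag
The 60 coding bases with the most differences lay in the second coding exon, at chr1:1691102-1691161 in AT1G05650 and chr1:1695119-1695178 in AT1G05660. They hold 12 mismatches, marked by capitals, and show where differences are densest over 60 bases. Over the read length of 100 bases the lowest identity, 82%, was in the window centred on coding base 710.
AT1G05650: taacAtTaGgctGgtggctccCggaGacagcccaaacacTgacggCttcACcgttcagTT
AT1G05660: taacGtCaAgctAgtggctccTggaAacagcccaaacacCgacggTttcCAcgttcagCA
How the counting treated reads with more than 1 match is not stated, so a small number of misplaced reads cannot be told apart from expression of the weaker copy.

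**Figure D1:**
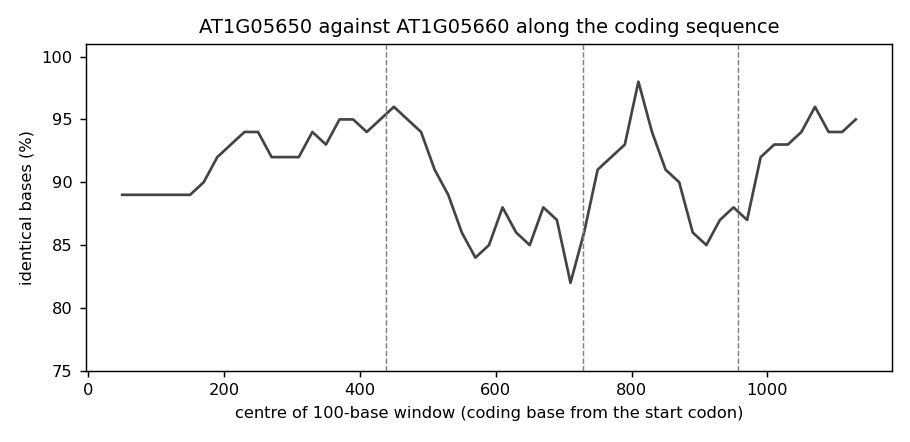
Identity of AT1G05650 and AT1G05660 along the 1185 aligned coding bases. The line gives the percentage of identical bases in windows of 100 bases (every 20 bases, plotted at the window centre, on an axis that starts at 75%), and dashed lines mark the ends of coding exons. Identity ranged from 82% to 98% and no window was fully identical.

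AT1G05650 had 16, 5 and 9 counts in IAA 1 to 3, against 210, 394 and 269 counts in mock 1 to 3. These are 0.756, 0.242 and 0.443 CPM in IAA, against 9.85, 18.6 and 12.9 CPM in mock. Every IAA library was below every mock library by more than 10-fold, and the IAA mean of 0.480 ± 0.259 CPM was 0.0353 of the mock level in the edgeR fit (mock 13.8 ± 4.44 CPM, log2 change -4.82, SE 0.40, n = 3 each). AT1G05660 had 391, 161 and 163 counts in IAA 1 to 3, against 848, 1386 and 913 counts in mock 1 to 3. In CPM this was 18.5, 7.78 and 8.02 in IAA, against 39.8, 65.4 and 43.9 in mock. The groups again did not overlap, but the gap was smaller, with a log2 change of -2.12 (SE 0.39). IAA 1 was more than 2 times as high as IAA 2 and IAA 3 for this copy.

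The copies also differed in how much of the pair's counts each held. AT1G05650 held 3.93%, 3.01% and 5.23% of the pair's counts in IAA 1 to 3, against 19.8%, 22.1% and 22.8% in mock 1 to 3. The exact 95% binomial intervals, which cover counting error only, ended at 9.70% or lower in IAA and began at 17.5% or higher in mock. This share does not depend on library scaling. Summing the copies removes the question of which copy a read came from. The sum was 19.2, 8.02 and 8.46 CPM in IAA 1 to 3, against 49.6, 84.0 and 56.9 CPM in mock 1 to 3, a log2 change of -2.41 (SE 0.40). This was close to the change of the more abundant copy.

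**Figure D2:**
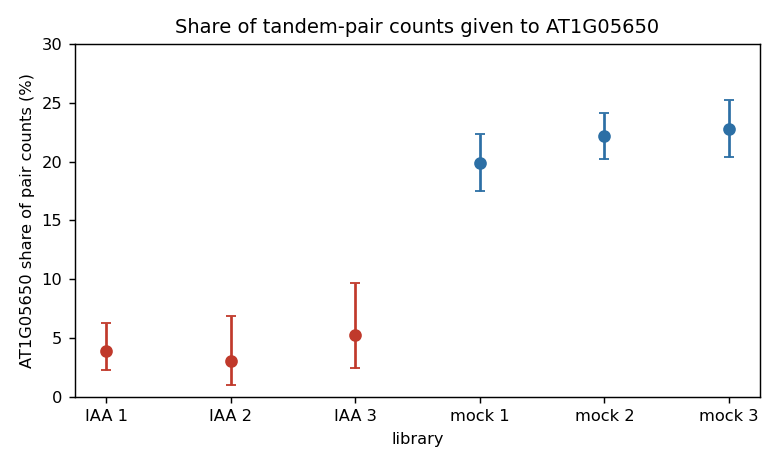
Percentage of the tandem pair's counts assigned to AT1G05650 in each library (y axis, %; x axis, the 3 IAA libraries in red and the 3 mock libraries in blue), with exact 95% binomial intervals. The IAA values of 3.01% to 5.23% lie below the mock values of 19.8% to 22.8%.

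The genes that flank the pair were not called. AT1G05640, an ankyrin repeat gene that lies 46 bases from AT1G05650, was at 7.67 ± 1.79 CPM in IAA and 6.88 ± 0.851 CPM in mock (edgeR adjusted p = 0.777, log2 change 0.16, SE 0.20). AT1G05670, a pentatricopeptide repeat gene on the other side, was at 7.74 ± 1.69 CPM in IAA and 8.13 ± 1.14 CPM in mock (edgeR adjusted p = 0.913, log2 change -0.07, SE 0.20). Both differences were smaller than the spread between replicates, and their sign changed when single libraries were left out. None of the 4 closest relatives elsewhere in the genome, by alignment score, was called by edgeR with all 6 libraries. AT2G43890 was at 2.01 ± 1.44 CPM in IAA and 7.56 ± 3.95 CPM in mock, with groups that did not overlap (log2 change -1.90, SE 0.62, edgeR adjusted p = 0.18). DESeq2 called it (adjusted p = 0.0103), and over the other alternatives the adjusted p ran from 0.101 to 0.39. It shares 591 bases with a gene on the other strand, and the strand setting of the counts is unknown. AT2G43880 was at 23.6 ± 7.89 CPM in IAA and 39.6 ± 9.55 CPM in mock, with overlapping groups (log2 change -0.74, SE 0.27, edgeR adjusted p = 0.22), and among the 13 alternatives it was called only without IAA 1 (edgeR adjusted p = 0.0424, up to 0.451 in the others). The next relatives align over fewer bases, 397 for AT3G59850 at 66.8% identity and 379 for AT2G43870 at 67.0%. AT3G59850 was at 18.1 ± 9.97 CPM in IAA and 18.0 ± 4.67 CPM in mock (edgeR adjusted p = 0.992), and AT2G43870 at 19.4 ± 11.5 CPM in IAA and 20.91 ± 5.95 CPM in mock (edgeR adjusted p = 0.943), both with overlapping groups.

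PMEI4 (AT4G25250), on chromosome 4 from 12934562 to 12935470 on the plus strand, encodes 199 residues in a single exon. It had 43, 24 and 50 counts in IAA 1 to 3, against 274, 445 and 289 counts in mock 1 to 3. The levels were 2.03, 1.16 and 2.46 CPM in IAA, against 12.9, 21.0 and 13.9 CPM in mock. The highest IAA library was well below the lowest mock library, and the IAA mean of 1.88 ± 0.663 CPM was 0.119 of the mock level (mock 15.9 ± 4.43 CPM, log2 change -3.08, SE 0.31, n = 3 each). AT4G25260 (PMEI7), an inhibitor gene whose product inhibits Arabidopsis PME3 in vitro, lies 239 bases away on the other strand. It fell to 28.9 ± 3.12 CPM in IAA, against 44.8 ± 5.20 CPM in mock (log2 change -0.63, SE 0.13, edgeR adjusted p = 0.0359). It overlaps AT4G25270 on the same strand over 306 bases, so some of its counts are uncertain, and its call was lost with the replicate block and without any single library except IAA 1. AT4G25240 (SKS1), on the other side of PMEI4, was at 20.95 ± 1.51 CPM in IAA and 20.8 ± 2.38 CPM in mock, a difference within the spread between replicates, with a sign that changed with the scaling by library totals (edgeR adjusted p = 0.984). The closest coding sequence to PMEI4 was that of AT5G51520, 72.8% identical over 588 bases. AT5G51520 fell to 10.4 ± 2.59 CPM in IAA, against 21.4 ± 3.06 CPM in mock (log2 change -1.04, SE 0.20, edgeR adjusted p = 0.0299), a call that was lost without IAA 2 or any single mock library.

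In the mock group, mock 2 was the highest library for the 3 lowest-in-IAA genes, as it was for 33.3% of all tested genes. Mock 2 was 1.89 and 1.44 times mock 1 and mock 3 for AT1G05650, 1.64 and 1.49 times for AT1G05660, and 1.63 and 1.51 times for PMEI4. Of all 19778 genes tested, 389 (1.97%) had mock 2 more than 1.4 times both other mock libraries. Mock 2 was also the mock library with the lowest summed level of shoot markers, 516 CPM. This pattern and the limit of 1.4 were chosen after the values were seen, so the share of 1.97% is a description and not a test. The relative AT2G43890 had the same order, at 3.85, 11.7 and 7.12 CPM in mock 1 to 3. In IAA the 3 genes did not go together. IAA 1 was 1.71 and 2.30 times IAA 3 for AT1G05650 and AT1G05660, but 0.826 times IAA 3 for PMEI4.

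The 300 bases before each annotated gene start are shown for these 3 genes because the genes were low together in IAA. Capitals mark TGTCNN, the general form of the element bound by auxin response factors, searched on both strands. AT1G05650 is at chr1:1692180-1692479 (minus strand), AT1G05660 at chr1:1696192-1696491 (minus strand) and PMEI4 at chr4:12934262-12934561 (plus strand), each written 5′ to 3′ toward the gene.
AT1G05650: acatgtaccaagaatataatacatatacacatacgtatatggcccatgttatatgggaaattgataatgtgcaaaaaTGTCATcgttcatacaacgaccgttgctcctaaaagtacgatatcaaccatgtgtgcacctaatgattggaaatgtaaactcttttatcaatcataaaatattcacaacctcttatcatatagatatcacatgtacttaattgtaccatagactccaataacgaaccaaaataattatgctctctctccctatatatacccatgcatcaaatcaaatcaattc
AT1G05660: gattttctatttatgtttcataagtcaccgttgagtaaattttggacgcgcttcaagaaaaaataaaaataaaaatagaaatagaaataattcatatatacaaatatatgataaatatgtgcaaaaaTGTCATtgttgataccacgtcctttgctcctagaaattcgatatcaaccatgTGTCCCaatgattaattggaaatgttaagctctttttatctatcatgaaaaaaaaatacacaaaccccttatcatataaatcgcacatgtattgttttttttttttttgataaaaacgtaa
PMEI4: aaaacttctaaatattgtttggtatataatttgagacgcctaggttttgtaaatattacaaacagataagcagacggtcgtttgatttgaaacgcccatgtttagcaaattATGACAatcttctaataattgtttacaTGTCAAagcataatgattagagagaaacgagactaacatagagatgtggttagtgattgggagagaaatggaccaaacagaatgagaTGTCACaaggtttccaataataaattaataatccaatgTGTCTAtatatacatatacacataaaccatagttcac
TGTCNN occurred 1, 2 and 4 times in these stretches, and 80.6% of the 27438 such stretches of protein-coding genes hold it at least once. The longest runs shared by the upstream stretches of the pair have 17 bases, and 1 of them includes a match, TGTCAT. The stricter forms TGTCTC and TGTCGG, held by 13.0% and 4.91% of all stretches, were not found in any of the 3. Among the other 6 genes, PME3 held TGTCGG once and none held TGTCTC. A match in these letters is a description, and nothing about binding follows from its presence or absence.

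The 3 PGX genes, named for polygalacturonases involved in expansion, stood at very different levels. PGX1 is on chromosome 3 from 9776958 to 9780553 and in Arabidopsis promotes cell expansion. It was at 22.1, 18.9 and 18.1 CPM in IAA 1 to 3, against 49.8, 52.3 and 33.6 CPM in mock 1 to 3. The groups did not overlap, mock 3 being the nearest to the IAA libraries, and the log2 change was -1.20 (SE 0.18), 0.435 of the mock level. PGX3, which in Arabidopsis acts in stomata and cotyledon pavement cells, had 66, 8 and 8 counts in IAA 1 to 3, against 38, 38 and 10 counts in mock 1 to 3. All mock values lay within the range of the IAA values, and IAA 1 was 8.07 and 7.93 times the other IAA libraries, so no direction could be read (log2 change -0.05, SE 0.90, with a sign that changed when single libraries were left out). Of all genes tested, 2.5% had IAA 1 more than 2 times both other IAA libraries. PGX3 overlaps 2 genes on the other strand, and the strand setting of the counts is unknown. AT1G48110, which overlaps over 14 bases, had 4062 counts in the IAA group and 3666 in the mock group. The long noncoding RNA gene AT1G07477, which overlaps over 802 bases, had 0 counts in all libraries. PGX2, linked to stem and hypocotyl growth, had 1 count in each IAA library and 0 in each mock library. Both groups are at or under the floor of 3 counts per group (0.0478 CPM in IAA and 0.0477 CPM in mock), so no fold is given and a difference was not detectable at this depth.

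Of the 3 methylesterase genes, PME3 and PME17 were far more abundant than the genes above. PME2 was nearer in mock to AT1G05660 and PGX1. PME2 and PME17 had overlapping groups, and PME3 was lower in IAA without overlap. PME3, a widely expressed methylesterase gene, was at 293, 369 and 359 CPM in IAA 1 to 3, against 470, 438 and 454 CPM in mock 1 to 3. All IAA libraries were below all mock libraries, with a log2 change of -0.42 (SE 0.11), 0.749 of the mock level, and DESeq2 called this difference while edgeR did not. PME2, the closest relative of PME3 with 77.5% identical coding bases over 1763, was at 80.4, 64.3 and 59.2 CPM in IAA, against 86.1, 83.3 and 64.6 CPM in mock. These groups overlapped, and the log2 change of -0.20 (SE 0.15) was within the spread between libraries. PME17, a methylesterase gene of roots and of pathogen responses, was at 217, 298 and 258 CPM in IAA, against 278, 220.0 and 261 CPM in mock. Its values were mixed between the groups, with a log2 change of 0.02 (SE 0.14) whose sign changed when single libraries were left out.

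**Figure D3:**
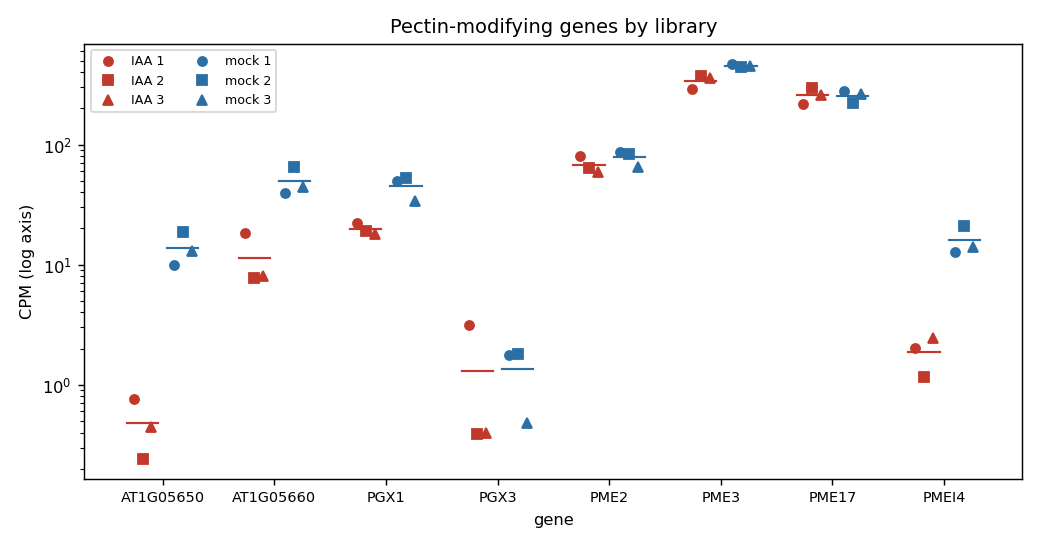
CPM of 8 of the 9 genes in each library (y axis, log scale; x axis, gene). Red symbols are the 3 IAA libraries and blue symbols the 3 mock libraries, with the shape giving the replicate number and the bar the mean. PGX2 is left out because it has 0 counts in mock. AT1G05650, AT1G05660, PGX1, PME3 and PMEI4 have all IAA values below all mock values.

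Counted over the whole table, edgeR called 4 of the 8 genes that passed the filter lower in IAA (AT1G05650, AT1G05660, PGX1 and PMEI4) and 0 higher, where 0.991% of all 19778 tested genes were called lower and 3.24% higher (4.23% in either direction, at a Benjamini-Hochberg adjusted p under 0.05 in the quasi-likelihood test). At an unadjusted p under 0.05 there were 5 lower and 0 higher, and DESeq2 called 5 lower and 0 higher. For these looser criteria the shares of all tested genes were not worked out, and the edgeR shares above do not stand for them. Values of IAA and mock did not overlap for 5 of the 8, all lower in IAA, against 9.83% of all tested genes. These counts describe genes chosen from this contrast, and nothing is read from them. AT1G05650 and PMEI4 were called in every one of the 13 alternatives. The alternatives reuse the libraries from which the genes were chosen, so they describe dependence on the processing and add no independent support. The AT1G05660 call was lost without a low-count filter, with the replicate block and without any single library except IAA 1, and the PGX1 call without mock 1, IAA 2 or IAA 3. The count of 4 became 2 without mock 1, IAA 2 or IAA 3, and 3 without mock 2 or mock 3, without a low-count filter or with the replicate block.

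Levels per length, as TPM (counts divided by exonic length and scaled to 1000000 per library), place the genes within their families. In mock the order was PME3 (325 ± 17.8 TPM), PME17 (214 ± 28.3), PME2 (63.8 ± 10.6), AT1G05660 (53.8 ± 14.4), PGX1 (42.7 ± 10.08), PMEI4 (29.1 ± 7.86), AT1G05650 (15.2 ± 4.74), PGX3 (1.17 ± 0.660) and PGX2 at 0 (SD, n = 3 each). The mock values of PME2, AT1G05660 and PGX1 overlapped between neighbours in this order, as did those of PGX1 and PMEI4. In IAA the order of levels was PME3 (241 ± 25.5 TPM), PME17 (215 ± 33.3), PME2 (55.2 ± 10.8), PGX1 (18.4 ± 2.60), AT1G05660 (12.4 ± 7.00), PMEI4 (3.398 ± 1.13), PGX3 (1.13 ± 1.39), AT1G05650 (0.530 ± 0.299) and PGX2 (0.0610 ± 0.00124). Here PME3 overlapped PME17, PGX1 overlapped AT1G05660, PMEI4 overlapped PGX3, and PGX3 overlapped AT1G05650. Among 90 genes of the polygalacturonase and pectin lyase-like type, AT1G05660 ranked 18 in IAA and 4 in mock by level, and AT1G05650 ranked 40 in IAA and 18 in mock. The pair made up 1.77% to 3.00% of the summed TPM of that list in IAA and 7.52% to 10.9% in mock. PME3 made up 15.3% to 18.4% of the summed methylesterase-type TPM in IAA and 24.4% to 25.4% in mock. PMEI4 made up 0.136% to 0.257% of the summed inhibitor-type TPM in IAA and 2.09% to 3.45% in mock. The summed inhibitor-type level itself was higher in IAA, 1563 to 1660 TPM, against 1102 to 1193 TPM in mock. A few abundant genes carried that sum, among them AT5G62340 at 560 TPM in IAA and 296 TPM in mock and UNE11 at 224 TPM in IAA and 69.9 TPM in mock. The median log2 change of the 22 tested genes of the list other than PMEI4 was -0.05. Of these 22, 5 were lower and 5 higher in IAA without overlap, against 9.83% and 12.3% of all tested genes.

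The rest of the pectin pathway did not move in 1 direction. Of 279 other pectin genes listed by locus or annotation, 136 were tested, and 6 (4.41%) rose and 5 (3.68%) fell in edgeR, against 3.24% and 0.991% of all genes tested. These counts leave out the 9 genes above, which were chosen with this contrast known and of which 4 were called lower. The median log2 change of the 136 was 0.01, and that of all tested genes -0.01. The count that fell was 11 without IAA 1, 3 without IAA 3 and 1 without IAA 2, mock 1 or mock 2. DESeq2 called 12 higher and 11 lower, and the replicate block left 3 lower.

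In the inhibitor-type list 2 of 22 rose and 2 fell. UNE11 (AT4G00080) rose to 137 ± 4.39 CPM in IAA, against 42.5 ± 7.495 CPM in mock (log2 change 1.69, SE 0.13, edgeR adjusted p = 0.000582). AT1G62770 (PMEI9), an inhibitor gene active in roots, rose to 92.3 ± 5.78 CPM in IAA, against 45.8 ± 8.76 CPM in mock (log2 change 1.01, SE 0.14, edgeR adjusted p = 0.00828). The members that fell were AT4G25260 and AT5G51520, the neighbour and the closest relative of PMEI4 described above. AT5G62340, the most abundant gene of the list and named after its value was seen, was at 320 ± 93.3 CPM in IAA and 167 ± 25.8 CPM in mock and was not called (edgeR adjusted p = 0.0691).

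In the methylesterase-type list 1 of 23 rose and 0 fell. The list follows annotation words and lacks methylesterase genes annotated only as pectin lyase-like. It also lacks AT1G11580 (PMEPCRA) and AT3G10710 (RHS12), relatives of PME2 that were added after their values were seen. PMEPCRA was more abundant than PME3 on average, at 406 ± 108 TPM in IAA and 587 ± 195 TPM in mock, with overlapping groups (log2 change of counts -0.52, SE 0.28, edgeR adjusted p = 0.396). RHS12 was at 47.0 ± 13.4 TPM in IAA and 33.8 ± 4.96 TPM in mock and was not called either (edgeR adjusted p = 0.246). AT3G10720 (PME25) rose to 290.1 ± 20.7 CPM in IAA, against 148 ± 19.3 CPM in mock (log2 change 0.97, SE 0.12, edgeR adjusted p = 0.00526). The subtilase gene SBT3.5 (AT1G32940), whose protease in Arabidopsis processes PME17, rose to 19.3 ± 1.57 CPM in IAA, against 12.9 ± 1.16 CPM in mock (log2 change 0.58, SE 0.12, edgeR adjusted p = 0.0433). That call was lost with library totals, with the replicate block and without any single library, and SBT3.5 overlaps its neighbour AT1G32950 over 69 bases. It was 1 of 3 subtilase genes tested.

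In the polygalacturonase and pectin lyase-like list, which also holds some methylesterase genes, 1 of 35 rose and 2 fell. AT3G06770 fell to 4.99 ± 0.655 CPM in IAA, against 12.0 ± 1.46 CPM in mock (log2 change -1.26, SE 0.16, edgeR adjusted p = 0.00585). AT3G16850 fell to 46.0 ± 1.69 CPM in IAA, against 65.9 ± 4.03 CPM in mock (log2 change -0.52, SE 0.09, edgeR adjusted p = 0.0188). AT3G62110 rose to 21.4 ± 3.45 CPM in IAA, against 13.2 ± 0.783 CPM in mock (log2 change 0.69, SE 0.14, edgeR adjusted p = 0.0382). The AT3G16850 call was lost with the replicate block and without IAA 2, IAA 3, mock 1 or mock 2. The AT3G62110 call was lost with library totals, with the replicate block and without IAA 2 or any single mock library.

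Among 15 pectate lyase genes, 1 fell: AT3G07010 was at 57.4 ± 3.90 CPM in IAA and 86.3 ± 9.14 CPM in mock (log2 change -0.59, SE 0.11, edgeR adjusted p = 0.024), a call lost with the replicate block and without IAA 2, mock 1 or mock 2. AT3G07010 shares 454 bases with AT3G07005 on the other strand, and the strand setting of the counts is unknown. AT3G07005 had 1 count in the IAA group and 0 in the mock group. Among 11 pectin acetylesterase genes, which remove acetyl groups, 1 rose: AT5G45280 was at 340 ± 18.4 CPM in IAA and 175 ± 9.23 CPM in mock (log2 change 0.96, SE 0.09, edgeR adjusted p = 0.00163). None of 26 homogalacturonan synthesis genes was called by edgeR. An unadjusted p under 0.05 was found for 4, and nothing is read from this because the share of all tested genes was not worked out. The most abundant of them were TSD2 (AT1G78240), also known as QUA2 and encoding a putative pectin methyltransferase, at 166 ± 13.97 CPM in IAA and 141 ± 6.88 CPM in mock, and the glycosyltransferase gene GAUT9 (AT3G02350) at 132 ± 12.2 CPM in IAA and 114 ± 9.16 CPM in mock. The polygalacturonase inhibitor gene PGIP2 (AT5G06870) was at 3.83 ± 1.63 CPM in IAA and 4.24 ± 2.53 CPM in mock, within the spread between replicates.

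**Figure D4:**
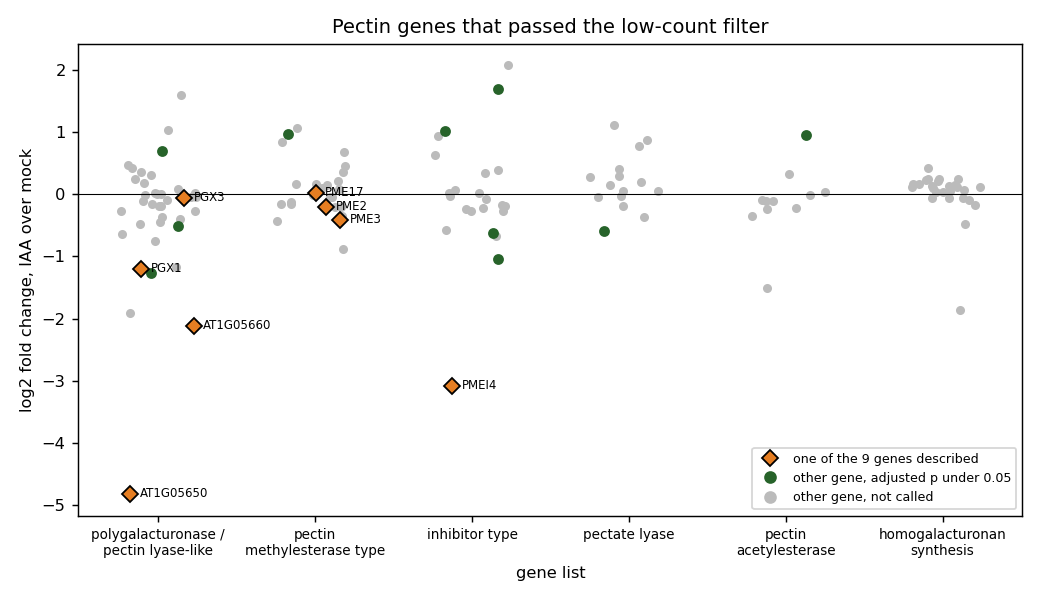
Log2 fold change of IAA over mock (y axis, edgeR) for pectin genes that passed the low-count filter, by list (x axis; the lists of subtilases and polygalacturonase inhibitors are left out). Orange diamonds are 8 of the 9 genes described, green points other genes called at an adjusted p under 0.05, and grey points other genes not called. AT1G05650 at -4.82, PMEI4 at -3.08 and AT1G05660 at -2.12 lie lowest, and called genes of the same lists lie on both sides of 0.

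The genes whose log2 CPM over the 6 libraries was most like that of AT1G05650 were TUB8 (AT5G23860), a beta-tubulin gene, with Pearson's r = 0.997, then AT1G72510 (0.996), AT5G57770 (0.995), annotated as an auxin canalization protein, the receptor-like kinase gene AT5G16590 (0.995) and ORP3B (AT3G09300, 0.994). For PMEI4 they were UBC7 (AT5G59300, 0.995), TUB8 (0.994), AT4G22666 (0.993), the arabinogalactan protein gene AGP7 (AT5G65390, 0.993) and AT3G49930 (0.993). The correlations share the same 6 libraries and mostly restate the difference between the groups, and they measure likeness of shape and not of size. TUB8 was at 102 ± 7.16 CPM in IAA and 152 ± 4.14 CPM in mock, and AGP7 at 17.3 ± 1.73 CPM in IAA and 39.4 ± 2.40 CPM in mock, far smaller differences than that of AT1G05650.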

How the data were processed

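The authors deposited raw read counts per gene as whole numbers, 1 column per sample, with 2 sequencing runs per sample already combined, per the labels. The submitters' processing notes name the build TAIR10 and 4 tools: the aligner STAR (2.5.2b), DESeq2 (1.26.0), SAMtools and FastQC. Which tool counted the reads, on which annotation and with which strand setting, was not given in the sources used here. The authors' own comparison table was not used.

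From these counts, edgeR 4.0.16 in R 4.3.3 (quasi-likelihood, robust, TMM, filterByExpr, group as the only term, Benjamini-Hochberg adjusted p under 0.05) was fitted on the whole table of 19778 genes that passed the filter. Standard errors are the absolute log2 change divided by the square root of F. The procedure was tested on simulated data. Alternatives, 13 in all, were RLE size factors, library totals, no filter, a filter of 1 CPM and 10 counts in 3 libraries, DESeq2 1.42.0, limma-voom (limma 3.58.1), the replicate number as a block, and each library left out in turn. TPM used exonic lengths for 32548 genes.

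Names, positions and sequences come from RefSeq TAIR10.1, not the TAIR10 of the notes, and were matched by locus. Sequences were compared with Biopython 1.88 and blastn 2.17.0. Lists of other pectin genes follow loci or annotation words, with inhibitor type meaning under 300 residues. They include 6 loci of unknown domains, of which 0 were called. Methylesterase genes annotated only as pectin lyase-like, PME5, PPME1 and QRT1 among them, fall in the pectin lyase-like list. Others were not sorted out, so that list mixes families and the methylesterase-type list is incomplete. Genes whose annotation lacks the words, such as AT1G11580 and AT3G10710, are in none. Up to 4 called genes per list are named by smallest p, or the 2 most abundant where none was called, and the 5 most alike genes by correlation (prior count 2). Genes flanking or most similar to the tandem pair and PMEI4 were added. The members and lists were chosen with earlier results of these data known.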

Additional observations from a re-analysis of the deposited data

How the results depend on the processing

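The 13 alternatives left the direction of AT1G05650, AT1G05660, PGX1, PME2, PME3 and PMEI4 as reported, with log2 changes of -5.31 to -4.51 for AT1G05650 and -3.31 to -2.81 for PMEI4. Leaving out 1 library gave 2 to 4 of the 9 genes called lower. It gave 1 to 11 other pectin genes lower and 4 to 8 higher. DESeq2 gave 11 lower and 12 higher, and the replicate block 3 lower. The summed tandem pair, at -2.41, was no longer called without a low-count filter (log2 change -2.41) or with the replicate block (-2.49). Its log2 change ran from -2.94 to -2.15 with 1 library left out, where it was called only without IAA 1. The replicate numbers were not taken as pairs: deviations of same-numbered libraries correlated at 0.0915, -0.449 and 0.202, and only IAA 3 correlated best with its own number. Sign changes occurred for uncalled genes near 0. With 1 library left out, log2 changes ran from -1.78 to 0.38 for PGX3, -0.092 to 0.14 for PME17, -0.56 to 0.13 for AT5G06870, -0.041 to 0.29 for AT1G05640, -0.24 to 0.084 for AT1G05670 and -0.071 to 0.071 for AT4G25240. AT5G06870 was at 0.051 with limma-voom and AT4G25240 at -0.012 with library totals. The causes were not tested. Depth limits PGX2, with 3 counts in all.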
